A study of Mus musculus with 46 samples.

Results

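Mammary tumors driven by Her2/neu were set against the normal mammary gland of pregnant mice, on arrays of microRNAs (miRNAs). The comparison held 10 of the 46 arrays of the series, the 5 labelled MMTV-H2N and the 5 labelled normal FVB pregnant, with 1 array per sample. All 10 samples came from female mice of the FVB strain. The MMTV-H2N samples were primary mammary tumors taken from individual transgenic mice, in which the long terminal repeat of mouse mammary tumor virus (MMTV) drives the receptor Her2/neu. The normal samples were whole glands of mice late in pregnancy, which the study chose because they are rich in epithelium. The ages of the mice were not given in the sources used here, nor was it given whether each normal gland came from its own mouse, so the p-values for that group measure a spread between samples that may in part be technical. Pregnancy went with the normal group and the transgene with the tumors, and the effects of the 2 cannot be told apart. As a model the tumors are limited by this promoter, since hormones of pregnancy and lactation raise its activity and transgenes under it are often found in other tissues too. The arrays did not measure messenger RNA, so the level of the transgene itself was not analysed here.

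MicroRNAs are short RNAs that bind messenger RNAs, mostly in their 3′ untranslated regions, and lower their stability and translation. Bases 2 to 8 of a miRNA, the seed, decide most of its pairing, so that miRNAs with one seed are held to share many targets and are grouped as families. Her2/neu (ErbB2) is a receptor tyrosine kinase of the epidermal growth factor receptor family that is amplified in a class of human breast cancers, where it signals through the Ras and phosphatidylinositol 3-kinase pathways. In the mammary gland the miR-200 family maintains the epithelial state, the let-7 family accompanies differentiation and restrains Ras, and miR-205 marks basal and progenitor cells.

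The sequences below are those of miRNAs on which the results turn, with the seed in capitals. They are RefSeq mature miRNAs (build GRCm38.p6), written 5′ to 3′, and each stands under its name on the array. The array names carry no arm, and the arm shown is the one each name was taken to mean. The first is the miRNA furthest below normal gland.
miR-21: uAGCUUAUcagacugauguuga
The next 6 share the let-7 seed and are shown because their levels moved apart.
miR-98: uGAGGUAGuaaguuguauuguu
let-7f: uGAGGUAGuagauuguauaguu
let-7d: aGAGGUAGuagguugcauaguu
let-7e: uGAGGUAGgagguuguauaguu
let-7a: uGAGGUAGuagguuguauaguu
let-7i: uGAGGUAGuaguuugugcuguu
The following 9 belong to 4 groups of one seed each, in which 1 member stood well above normal gland while another did not.
miR-141: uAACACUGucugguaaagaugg
miR-200a: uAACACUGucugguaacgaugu
miR-130b: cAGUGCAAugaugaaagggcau
miR-301: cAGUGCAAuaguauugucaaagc
miR-30e: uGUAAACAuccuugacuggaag
miR-30a-5p: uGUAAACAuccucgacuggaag
miR-30c: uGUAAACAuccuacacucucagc
miR-20b: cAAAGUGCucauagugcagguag
miR-20a: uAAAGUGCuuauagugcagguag
Another 4 form pairs of one seed each that were both lower in the tumors.
miR-10a: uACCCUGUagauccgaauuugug
miR-10b: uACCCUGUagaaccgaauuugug
miR-103: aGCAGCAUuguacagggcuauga
miR-107: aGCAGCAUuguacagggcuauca
The last 2 had some of the largest positive folds.
miR-691: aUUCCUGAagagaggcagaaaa
miR-33: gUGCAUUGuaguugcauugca
Over their whole length miR-98 and let-7a differ at 2 of 22 bases, miR-141 and miR-200a at 2 of 22, miR-30e and miR-30a-5p at 1 of 22, and miR-10a and miR-10b at 1 of 23. How well the array probes told such sequences apart was not tested.

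The arrays carried probes for 334 mouse miRNAs, each in 4 spots. Levels are given as multiples of the array median, which is the median signal over all 1336 spots of an array, and folds are on the log2 scale with their standard errors. The signal below which the dimmest 5% of its spots lay was taken as the floor of an array, and a miRNA with more than 3 times that signal is called above the floor there. The floor lay between 21.0 and 61.3 signal units on MMTV-H2N arrays and between 21.3 and 34.6 on normal arrays. From 186 to 251 miRNAs were above the floor on MMTV-H2N arrays and 199 to 236 on normal arrays. No difference was detected in two-sided exact permutation tests of the floor (p = 0.127), the 90th percentile (p = 0.0635), the median (p = 0.77) or the number of miRNAs above the floor (p = 0.929). Adjusted over these 4 exact tests, the p-values were 0.254, 0.254, 0.929 and 0.929, and the smallest exact p that the 252 splits allow is 0.00794. The ratio of the 90th percentile to the floor did differ, however, at 154 to 316 on MMTV-H2N arrays and 360 to 577 on normal arrays. These ranges did not overlap, so signal stood less far above background on the tumor arrays, and the effect of this on the folds was not tested. Profiles of a pair of MMTV-H2N tumors correlated over miRNAs with a median r of 0.942 (0.870 to 0.980), profiles of a pair of normal glands with a median of 0.965 (0.943 to 0.986) and profiles of a tumor and a normal gland with a median of 0.828 (0.765 to 0.859). These correlations run over miRNAs, which are not independent replicates, and are descriptions. The median SD between samples was 0.76 on the log2 scale in MMTV-H2N tumors and 0.52 in normal glands. On the arrays of MMTV-H2N replicates 1 and 2 the 4 spots of a miRNA spread more widely (median SD 0.756 and 0.511) than on the other 8 (0.138 to 0.266).

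The comparison asked which miRNAs distinguish Her2/neu tumors from the normal epithelium-rich gland. miR-691, miR-684, miR-469, miR-33, miR-130b and miR-141 were far higher in the tumors, as was the let-7 family member miR-98, while miR-21 was far lower. The test was that of limma, which fits a linear model to each miRNA and draws its variance toward a value common to all miRNAs. Standard errors and p-values of a miRNA therefore do not measure its own spread alone. In this comparison the standard errors lie close to one value for most miRNAs named, whether their samples spread widely or not. With p-values adjusted over all miRNAs by the Benjamini-Hochberg method, 102 miRNAs were higher (30.5% of 334) and 84 were lower (25.1%) in MMTV-H2N tumors. In all, 55.7% of all miRNAs passed an adjusted p of 0.05, and all of these had an absolute log2 fold of at least 1.01. All 5 tumors lay above all 5 normal glands for 58 miRNAs (17.4%) and below them for 53 (15.9%), which leaves no overlap for 33.2% of all miRNAs. The higher calls were mostly of dim miRNAs. Of the 102, 47 were above the floor on all 5 MMTV-H2N arrays, and 53 were at or below it on all 5 normal arrays, whereas 80 of the 84 lower miRNAs were above it on all 5 normal arrays. Among the 153 miRNAs above the floor on all 10 arrays, 29 were higher and 52 lower.

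The median log2 fold over all miRNAs was 0.35, and 54.8% of the calls were higher. This share depended on how arrays were scaled, and so did the median fold. Higher calls made up 76.2% when the 75th percentile took the place of the median (median fold 1.05) and 73.4% when the brightest miRNAs did (0.89). They made up 49.1% after quantile normalization (0.05) and 45.1% for unscaled arrays (0.19). Once the floor had been subtracted, they made up 66.3% relative to the 90th percentile (0.51) and 34.7% for unscaled arrays (0.0043). No called miRNA changed sign in any of these 7 settings. With the 75th percentile, the brightest miRNAs or unscaled arrays, this was fixed in advance, since every fold shifts by one constant smaller than any called fold. Only quantile normalization and the settings with the floor subtracted could have changed a sign. In all 7 settings, 39 miRNAs were called higher and 55 lower, and these include each of the miRNAs with the 10 largest folds in either direction. All folds are relative to the median scaling.

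**Figure D1:**
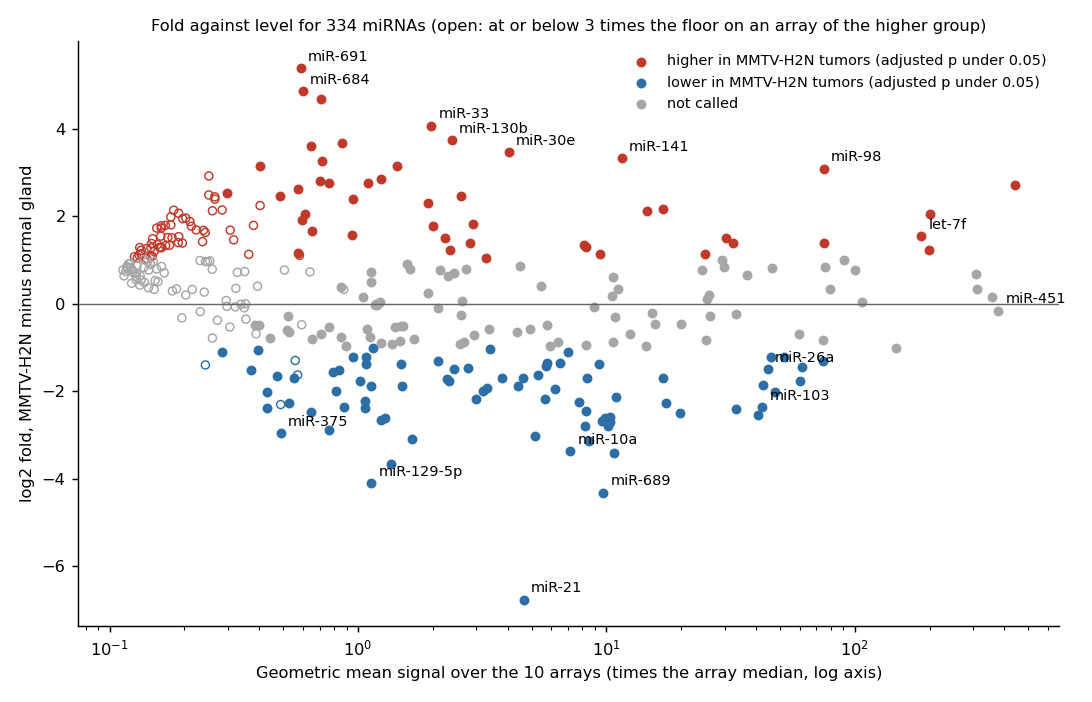
log2 fold of MMTV-H2N tumors over normal gland against the geometric mean signal over the 10 arrays, as a multiple of the array median on a log axis, for 334 miRNAs. Red points were higher and blue points lower in the tumors at an adjusted p under 0.05, grey points were not called, and open points were at or below 3 times the floor on an array of the higher group. miR-21 stands alone at -6.77, and the open points crowd at the dim end with positive folds.

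miR-21, the miRNA most often raised in carcinomas and a repressor of the tumor suppressor Pdcd4, had the largest fold in either direction. Its level was 0.753, 0.552, 0.282, 0.938 and 0.159 times the array median in MMTV-H2N tumors, against 56.2, 33.1, 43.6, 57.9 and 56.96 times in normal glands. No tumor came near the lowest normal gland, and the log2 fold was -6.77 ± 0.46, adjusted p = 5.22e-27. So small a p-value rests largely on the variance that limma draws from all miRNAs, not on the replicates of miR-21 alone. The signal of miR-21 was a median of 4.30 times the floor in the tumors, above 3 times it on 3 of 5 arrays, against 559 times in normal glands. RefSeq places it at chr11:86584120-86584141 within the span of Vmp1.

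Among the miRNAs next in size were the pair encoded in Hox clusters. miR-10a had 5.70, 0.938, 1.59, 1.48 and 4.33 times the array median in MMTV-H2N tumors, against 47.7, 26.6, 23.8, 15.3 and 14.2 times in normal glands (-3.38 ± 0.46, adjusted p = 7.4e-10). miR-10b had 10.3, 2.09, 1.74, 2.11 and 2.38 times the array median in MMTV-H2N tumors, against 41.9, 20.3, 18.1, 26.2 and 25.5 times in normal glands (-3.15 ± 0.46, adjusted p = 4.31e-09). For both, every tumor lay below every normal gland, and the highest tumor value was that of replicate 1. miR-10a lies at chr11:96317186-96317208 within the span of Hoxb3 and miR-10b at chr2:74726074-74726096 within the spans of Hoxd3 and Hoxd4. All 4 Hox-cluster miRNAs measured were lower with median scaling, and miR-10a and miR-10b alone in each of the other 6 settings. miR-196a (-1.47 ± 0.46) was no longer called without normal replicate 3 (adjusted p = 0.0519). miR-196b (-1.04 ± 0.46) was no longer called when any of 7 arrays was left out, which were normal replicates 2, 3 and 4 and MMTV-H2N replicates 1, 2, 4 and 5 (adjusted p = 0.0524 to 0.226).

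miR-150, a miRNA of mature lymphocytes that represses Myb, had 0.873, 1.65, 4.69, 1.50 and 1.90 times the array median in MMTV-H2N tumors, against 27.7, 25.3, 17.8, 7.55 and 7.16 times in normal glands (-3.02 ± 0.46, adjusted p = 2.29e-08). miR-375, best known from pancreatic islets, was at or below 3 times the floor in all 5 tumors and above it in all 5 normal glands, with 0.239, 0.156, 0.172, 0.310 and 0.0841 times the array median in MMTV-H2N tumors, against 0.481, 1.999, 3.001, 1.57 and 1.02 times in normal glands, so it was at least 3.41-fold lower (adjusted p = 3.78e-08). miR-129-5p, known from neural tissue, had 0.187, 0.490, 0.150, 0.238 and 0.461 times the array median in MMTV-H2N tumors, against 2.47, 5.85, 12.2, 3.68 and 3.50 times in normal glands (-4.10 ± 0.46, adjusted p = 2.1e-13). It was above the floor on 2 of 5 tumor arrays, which limits how well the size of the fall is known. Tumors and normal glands did not overlap for any of the 3. miR-382 (-3.66 ± 0.46), miR-187 (-3.10 ± 0.44) and miR-127 (-2.90 ± 0.46) fell as well, and miR-127 was above the floor on 1 of 5 tumor arrays. The mouse entries miR-689 and miR-705, for which no role is given here, had geometric means of 2.17 and 3.30 times the array median in MMTV-H2N tumors, against 43.5 and 35.1 times in normal glands (-4.32 ± 0.46 and -3.41 ± 0.45).

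The largest positive folds belonged to entries found by cloning in mouse tissue, whose roles are little known. miR-691 had 3.72, 6.14, 2.84, 3.64 and 3.39 times the array median in MMTV-H2N tumors, against 0.146, 0.0842, 0.0748, 0.112 and 0.0602 times in normal glands. It was above 3 times the floor on every tumor array and at or below it on every normal array, which makes it at least 15.1-fold higher (adjusted p = 1.12e-20). RefSeq places it at chr16:74342005-74342026 within the span of Robo2. miR-469 showed the same pattern, with 1.80, 3.998, 5.56, 5.25 and 2.90 times the array median in MMTV-H2N tumors, against 0.198, 0.119, 0.164, 0.159 and 0.0891 times in normal glands, and was at least 14.3-fold higher (adjusted p = 7.36e-17). miR-684 had 1.02, 4.71, 7.03, 3.91 and 2.63 times the array median in MMTV-H2N tumors, against 0.126, 0.0810, 0.221, 0.104 and 0.0740 times in normal glands (4.85 ± 0.46, adjusted p = 5.32e-17). It was above the floor on 1 of 5 normal arrays. miR-698 (3.62 ± 0.46) and miR-702 (3.27 ± 0.45), also above the floor on 1 normal array each, completed this set.

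Better known miRNAs followed. miR-33, which lies at chr15:82198127-82198147 within the sterol regulator gene Srebf2 and limits cholesterol export, had 26.4, 7.52, 11.3, 7.71 and 1.97 times the array median in MMTV-H2N tumors, against 0.466, 0.451, 0.735, 0.376 and 0.441 times in normal glands (4.07 ± 0.47, adjusted p = 6.17e-13). It was above the floor on all 10 arrays, and the groups did not overlap, although the tumors spread widely, with replicate 1 highest and replicate 5 lowest. miR-211, the paralog of miR-204 that lies within the span of the melanocyte gene Trpm1, had 2.57, 3.24, 3.64, 4.09 and 2.31 times the array median in MMTV-H2N tumors, against 0.144, 0.259, 0.219, 0.521 and 0.195 times in normal glands (3.68 ± 0.45, adjusted p = 7.99e-12). Its paralog miR-204, with the same seed, was not called (-0.71 ± 0.49, adjusted p = 0.188) but was lower without MMTV-H2N replicate 1 (-1.47, adjusted p = 0.00411). miR-124a, known from neurons, had a geometric mean of 4.28 times the array median in MMTV-H2N tumors, against 0.483 times in normal glands (3.15 ± 0.47, adjusted p = 1.11e-08), and the groups overlapped through MMTV-H2N replicate 5. The 2 entries at the top of the tumor profile were miR-690 and miR-709, with geometric means of 1126 and 409 times the array median in MMTV-H2N tumors, against 173 and 98.7 times in normal glands (2.70 ± 0.45 and 2.05 ± 0.45).

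**Figure D2:**
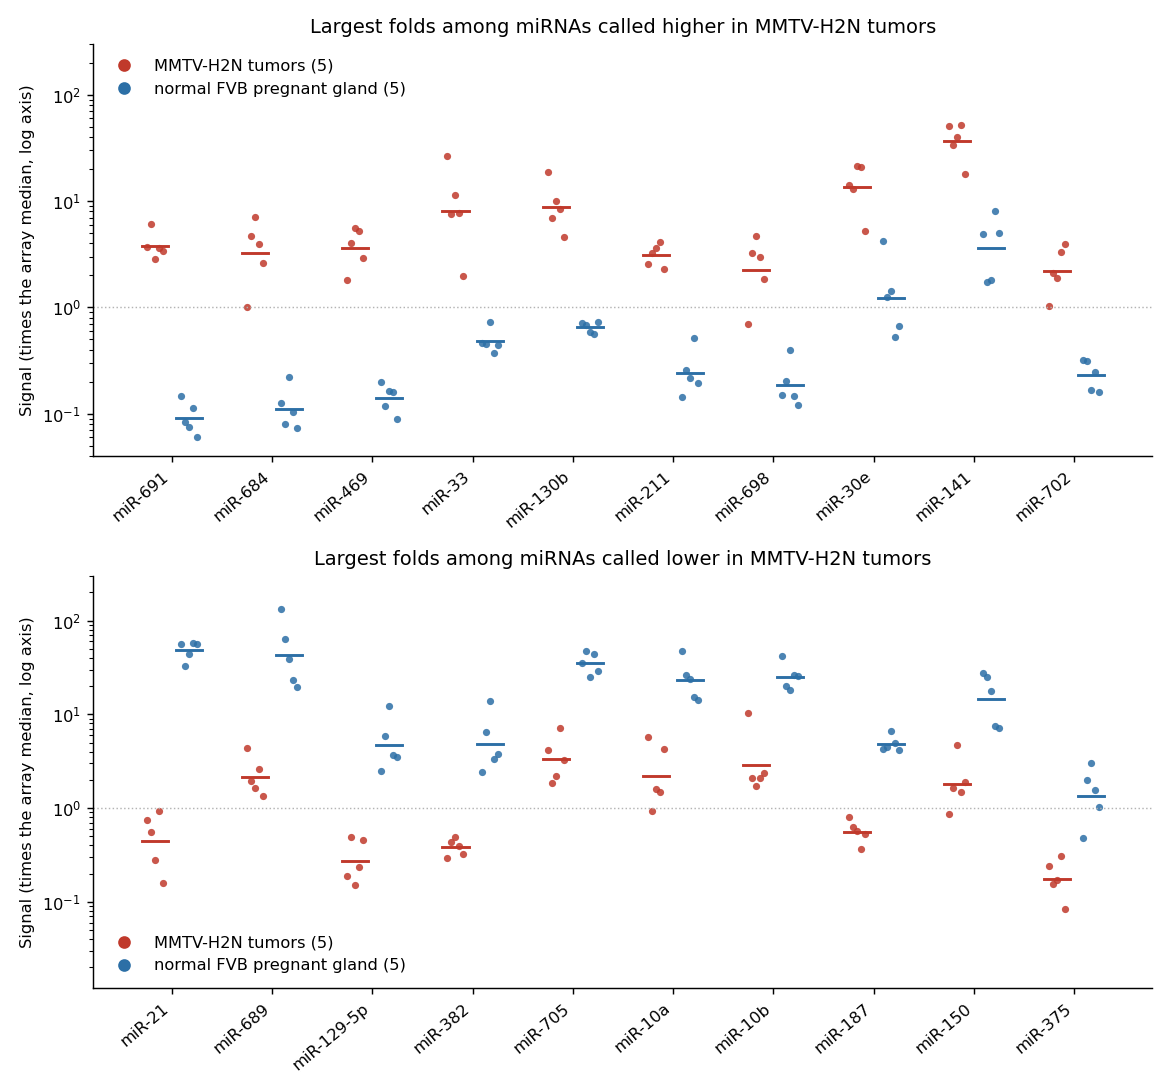
Signal of single arrays, as a multiple of the array median on a log axis, for the 10 miRNAs with the largest folds in each direction among those called and above the floor on all arrays of the higher group. Red points are the 5 MMTV-H2N tumors and blue points the 5 normal glands, bars mark geometric means and the dotted line the array median. The tumor and normal points do not overlap for any of the 20 miRNAs.

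The let-7 family split. Of its 9 members measured, all above the floor on every array, 4 were higher and 1 was lower, with a median log2 fold of 0.68 against 0.35 over all miRNAs. miR-98 rose most, with 323, 187, 334, 234 and 105 times the array median in MMTV-H2N tumors, against 40.1, 21.7, 22.8, 24.02 and 23.6 times in normal glands (3.09 ± 0.45, adjusted p = 4.3e-09). The lowest tumor was well above the highest normal gland. let-7f had 483, 256, 458, 338 and 166 times the array median in MMTV-H2N tumors, against 138, 99.2, 100.19, 108 and 101 times in normal glands (1.55 ± 0.45, adjusted p = 0.00213), again without overlap. let-7e (1.38 ± 0.45, adjusted p = 0.00654) and let-7d (1.23 ± 0.45, adjusted p = 0.0136) were higher too. let-7i, with the same seed, was the member that fell, at 89.9, 30.5, 50.1, 44.6 and 11.7 times the array median in MMTV-H2N tumors, against 128, 76.05, 91.3, 109 and 109.68 times in normal glands (-1.44 ± 0.46, adjusted p = 0.00523), with overlap through MMTV-H2N replicate 1. The most abundant members let-7a (0.68 ± 0.45), let-7b (0.32 ± 0.45) and let-7c (0.16 ± 0.45) did not pass the test, and let-7c had a negative fold (-0.54) with quantile normalization. The median of the family stayed positive under all 7 settings, between 0.09 and 1.38, while the number of members called higher ran from 3 without scaling to 8 with scaling to the 75th percentile. RefSeq places miR-98 and a copy of let-7f 876 bases apart on chromosome X within the span of Huwe1, and another copy of let-7f 1811 bases from let-7d and 350 bases from let-7a on chromosome 13.

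In the miR-200 family, whose members repress the transcription factors Zeb1 and Zeb2 and so keep cells epithelial, 1 of 5 was higher and 1 lower, and the median fold of -0.95 was negative under all 7 settings. miR-141 had 51.3, 33.8, 40.4, 51.4 and 17.96 times the array median in MMTV-H2N tumors, against 4.91, 1.74, 1.82, 8.03 and 5.04 times in normal glands (3.33 ± 0.46, adjusted p = 7.74e-10). All 5 tumors exceeded all 5 normal glands. miR-200a, which has the same seed, had 43.2, 92.7, 176, 233 and 70.99 times the array median in MMTV-H2N tumors, against 281, 149, 169.69, 284 and 189 times in normal glands (-1.01 ± 0.46, adjusted p = 0.0518). miR-200b was lower, at 10.9, 7.48, 18.5, 8.16 and 5.74 times the array median in MMTV-H2N tumors, against 42.4, 18.6, 14.5, 53.4 and 42.2 times in normal glands (-1.70 ± 0.46, adjusted p = 0.000941), with MMTV-H2N replicate 3 inside the normal range, while miR-429 (-0.95 ± 0.46) and miR-200c (-0.47 ± 0.46) did not pass the test. miR-429 was called lower when any of 4 arrays was left out, normal replicates 2 and 3 and MMTV-H2N replicates 3 and 4 (adjusted p = 0.0291 to 0.0479), and miR-200a without normal replicate 2 or MMTV-H2N replicate 3 or 4 (adjusted p = 0.0218 to 0.047). miR-141 and miR-200c start 407 bases apart on the minus strand of chromosome 6, and their folds were 3.33 and -0.47. All 5 members were above the floor on all 10 arrays, and the summed level of the family was 102 to 322 times the array median in MMTV-H2N tumors and 189 to 399.73 times in normal glands.

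In the miR-30 family, which takes part in epithelial differentiation, miR-30e rose most, with 14.2, 13.1, 21.5, 21.00 and 5.20 times the array median in MMTV-H2N tumors, against 4.24, 1.26, 1.43, 0.523 and 0.665 times in normal glands (3.46 ± 0.47, adjusted p = 4.38e-10). Every tumor was above every normal gland. miR-30a-5p, 1 base from it in sequence, was also higher, at 71.5, 41.8, 70.5, 72.2 and 22.7 times the array median in MMTV-H2N tumors, against 32.1, 14.3, 12.9, 18.7 and 16.9 times in normal glands (1.50 ± 0.45, adjusted p = 0.00309). In miR-30a-5p MMTV-H2N replicate 5 lay within the normal range. The others were not called, and miR-30c, which lies 3076 bases from miR-30e within the span of Nfyc on chromosome 4, had a fold of -0.70 ± 0.45 (adjusted p = 0.169). The median log2 fold over the 5 members was 0.99 and positive under all 7 settings.

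miR-130b and miR-301 share a seed and moved in opposite directions. miR-130b had 18.9, 6.99, 10.04, 8.49 and 4.56 times the array median in MMTV-H2N tumors, against 0.707, 0.687, 0.584, 0.566 and 0.732 times in normal glands (3.75 ± 0.45, adjusted p = 3.99e-12). miR-301, which lies within the span of Ska2, had 0.351, 0.374, 0.327, 0.305 and 0.121 times the array median in MMTV-H2N tumors, against 2.49, 0.693, 0.973, 2.10 and 2.32 times in normal glands (-2.47 ± 0.46, adjusted p = 2.28e-06), and was above the floor on 1 of 5 tumor arrays and on all normal arrays. Neither miRNA showed overlap between the groups. In the study's own real-time PCR, however, array and PCR levels were weakly or not associated for miR-301, and likewise for miR-155. The association was strong for others, among them miR-10b, miR-107, miR-193, miR-200b and let-7f. miR-130a, 2 bases from miR-130b, was at -0.22 ± 0.46 (adjusted p = 0.668).

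The miR-17-92 cluster and its paralogs, known as promoters of growth and targets of MYC, held 2 higher and 5 lower of 12 measured members, or 5 higher and 2 lower with scaling to the 75th percentile. The median log2 fold of -0.57 turned to 0.13 with that scaling. miR-20b, of the paralog cluster on chromosome X, had 5.81, 2.50, 4.06, 3.96 and 1.76 times the array median in MMTV-H2N tumors, against 0.817, 0.323, 0.373, 0.342 and 0.629 times in normal glands (2.85 ± 0.45, adjusted p = 5.56e-08), whereas miR-20a, with the same seed, was lower (-1.36 ± 0.45, adjusted p = 0.00777). miR-19a (2.47 ± 0.46, adjusted p = 2.56e-06) rose and miR-18 (-2.61 ± 0.46, adjusted p = 8.11e-07) fell, and RefSeq places their starts 181 bases apart on chromosome 14. miR-17-5p, which starts 183 bases before miR-18, had a fold of -1.11 ± 0.45 and lost its call when any of 5 arrays was left out, namely normal replicates 1, 4 and 5 and MMTV-H2N replicates 2 and 4 (adjusted p = 0.0577 to 0.122). In the cluster within the span of Mcm7, miR-25 (-2.25 ± 0.46, adjusted p = 1.54e-05) and miR-93 (-1.37 ± 0.46, adjusted p = 0.00802) were lower, and miR-106b was at -0.88 ± 0.45 (adjusted p = 0.0877). miR-32, which has the seed of miR-25, had a fold of the opposite sign and was at or below 3 times the floor on all normal arrays, at least 2.83-fold higher in the tumors (adjusted p = 1.28e-06). The miR-29 family, repressors of collagen messages, had 1 of 3 members higher, miR-29c (2.11 ± 0.46, adjusted p = 5.87e-05), and a median of 1.00, with all 3 higher under 4 of the other 6 settings.

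In 3 further families no member was higher with median scaling and at least 2 were lower. miR-103 and miR-107, which lie within the spans of the pantothenate kinase genes Pank3, Pank2 and Pank1, had geometric means of 18.7 and 23.7 times the array median in MMTV-H2N tumors, against 96.7 and 96.04 times in normal glands (-2.37 ± 0.45 and -2.02 ± 0.45). miR-26b had 9.50, 7.09, 15.4, 9.89 and 3.91 times the array median in MMTV-H2N tumors, against 60.7, 49.7, 40.5, 46.3 and 41.04 times in normal glands (-2.50 ± 0.45, adjusted p = 1.22e-06). miR-26a fell less (-1.50 ± 0.45, adjusted p = 0.00305), and both miR-26 members lie within spans of phosphatase genes of the Ctdsp family. Of the miR-148 and miR-152 family, miR-148a, one of the most abundant miRNAs of milk, was lower (-1.86 ± 0.46, adjusted p = 0.000357), as was miR-152 (-1.96 ± 0.46, adjusted p = 0.000143), while miR-148b was at 0.07 ± 0.45. Outside these families, miR-210, the miRNA most closely tied to hypoxia, was lower in all 5 tumors than in any normal gland (-2.18 ± 0.45, adjusted p = 2.12e-05). The medians of the 3 families were -2.19, -2.001 and -1.86, all negative under the 7 settings.

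**Figure D3:**
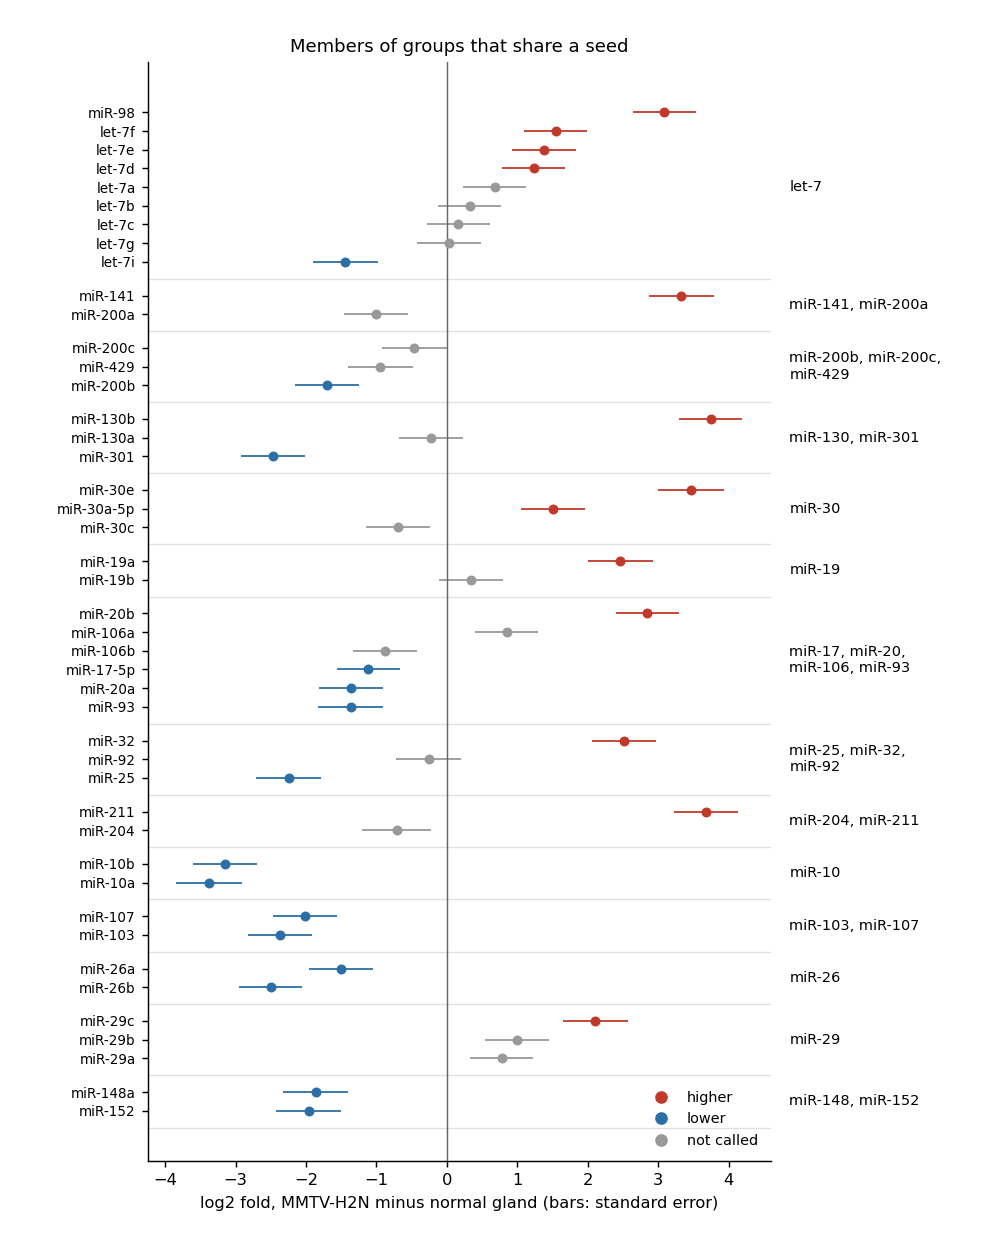
log2 fold of MMTV-H2N tumors over normal gland, with standard errors, for members of groups that share a seed, ordered by fold within each group. Red points were higher, blue points lower and grey points not called. The let-7 group and those of miR-130b, miR-20b and miR-32 each hold a higher and a lower member, while the pairs of miR-10a, miR-103, miR-26b and miR-152 lie on the lower side.

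Markers of cell types were read as whole lists, beside 30.5% higher and 25.1% lower over all miRNAs, since fewer cells of a type and less RNA per cell cannot be told apart in whole tissue. Basal epithelial miRNAs were lower in 2 of 3 cases, with summed levels of 4.32 to 11.8 times the array median in MMTV-H2N tumors and 24.6 to 49.8 times in normal glands. miR-205, which marks basal cells and also targets the receptor ErbB3, had 5.69, 3.34, 4.86, 4.47 and 2.08 times the array median in MMTV-H2N tumors, against 28.2, 20.7, 15.4, 36.98 and 41.8 times in normal glands (-2.80 ± 0.45, adjusted p = 8.34e-08). miR-203 was lower too (-1.70 ± 0.46, adjusted p = 0.000971), and for both miRNAs every tumor lay below every normal gland, while miR-31 was at -0.51 ± 0.45. Among 5 miRNAs that mark stroma or smooth muscle, 4 were lower, and the sums were 42.7 to 124 times the array median in MMTV-H2N tumors and 188 to 298 times in normal glands. miR-199a (-2.59 ± 0.45) and miR-199b (-2.62 ± 0.45), known from mesenchyme, fell most, and smooth muscle miR-145 (-1.77 ± 0.45) and miR-143 (-1.22 ± 0.45) fell as well. Fibroblast-linked miR-214 was at 1.03 ± 0.45 and lost its call without any of 7 arrays, which were MMTV-H2N replicates 2, 3 and 4 and normal replicates 2 to 5 (adjusted p = 0.0579 to 0.135).

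Of 4 leukocyte miRNAs 2 were lower, myeloid miR-223 (-2.15 ± 0.44, adjusted p = 2.06e-05) and lymphocyte miR-150, with sums of 7.91 to 21.7 times the array median in MMTV-H2N tumors and 27.6 to 66.9 times in normal glands. miR-142-5p (0.77 ± 0.46) and miR-155 (-0.60 ± 0.47) did not pass the test. None of the 3 red cell miRNAs was called, and their sum, almost all of it miR-451, was 184 to 703 times the array median in MMTV-H2N tumors and 277 to 595 times in normal glands. One of them, miR-486, is reported by the study as reduced in all its mammary tumors. Here it spanned 2.81 to 6.92 times in MMTV-H2N tumors and 6.41 to 11.3 times in normal glands, with overlap. It was called lower without MMTV-H2N replicate 2 (adjusted p = 0.0437) or 5 (adjusted p = 0.0228). Of 3 skeletal muscle miRNAs 2 were lower, and 1 in each of the other 6 settings, but the normal glands differed widely among themselves. miR-133b had 2.13, 2.85, 2.25, 8.97 and 2.29 times the array median in MMTV-H2N tumors, against 104, 1.73, 43.9, 13.4 and 45.2 times in normal glands (-2.81 ± 0.52, adjusted p = 2.2e-06), and normal replicate 2 lay below all 5 tumors. Its standard error and p-value, drawn toward the variance common to all miRNAs, do not carry the full width of this normal range. The 3 miRNAs listed for fat, of which miR-193 was taken to be miR-193a, were not called, but 2 were higher in 4 of the other 6 settings. Endothelial miR-126-5p was higher, by at least 1.22-fold (adjusted p = 0.0081), though it was above the floor on 1 tumor array and 0 normal arrays, and the call was lost without MMTV-H2N replicate 2 (adjusted p = 0.0649) and in 3 of the other 6 settings. No marker of these lists was at 0, and the part that the makeup of the tissue plays in the folds above was not tested.

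**Figure D4:**
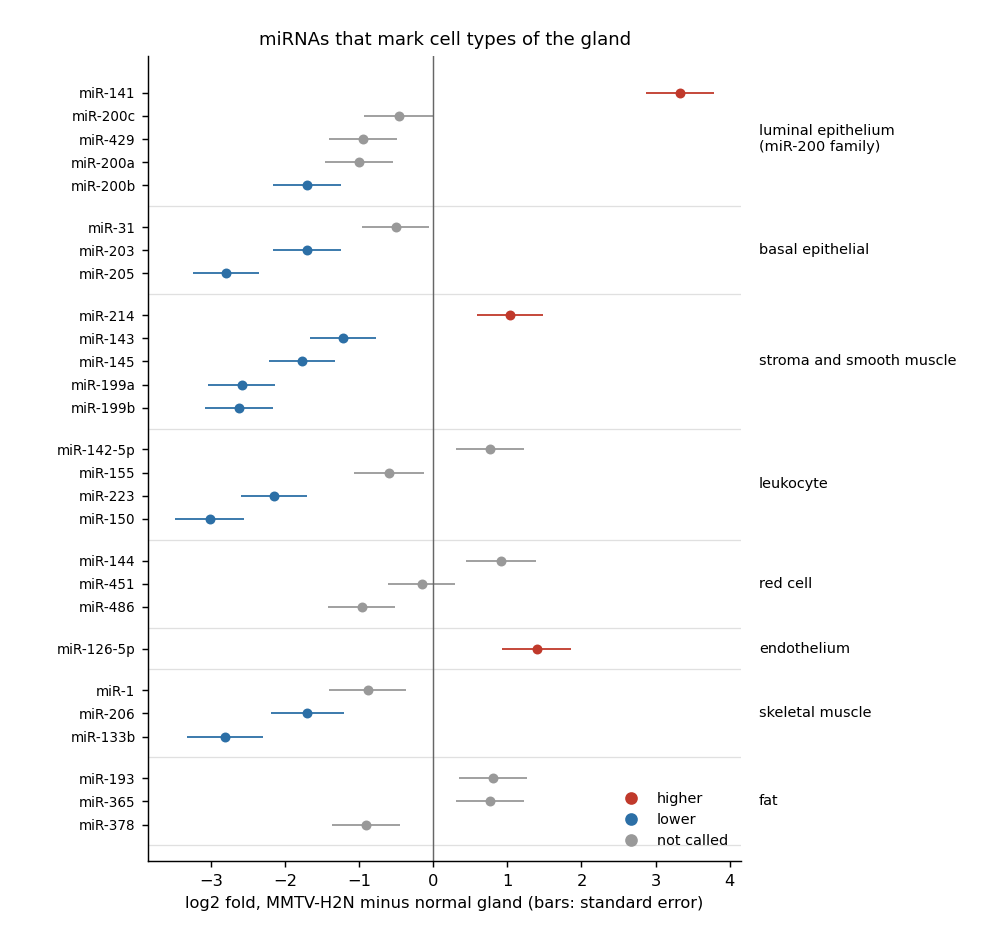
log2 fold of MMTV-H2N tumors over normal gland, with standard errors, for miRNAs that mark cell types, grouped by type. Red points were higher, blue points lower and grey points not called. Most basal, stromal and muscle markers lie on the lower side, as do 4 of 5 members of the luminal list, of which miR-141 alone is positive.

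The counts of the following lists stand beside 30.5% higher, 25.1% lower and a median of 0.35 over all miRNAs. Among 10 miRNAs of milk and the lactating gland 5 were lower and 2 higher (median -1.25). Over the 7 settings the number higher ran from 2 to 4, the number lower from 5 to 6, and the median stayed negative. The lower ones included miR-22 (-2.46 ± 0.46, adjusted p = 2.28e-06) and miR-146b, which had 77.1, 8.39, 19.5, 14.4 and 3.54 times the array median in MMTV-H2N tumors, against 89.7, 53.7, 49.8, 119 and 92.3 times in normal glands (-2.40 ± 0.48, adjusted p = 1.12e-05) and overlapped through MMTV-H2N replicate 1. Of 12 miRNAs that MYC is known to repress, 6 were lower in each of the 7 settings, while the number higher was 1 with median scaling and ran up to 5 with scaling to the 75th percentile (median log2 fold -0.86). Over all 334 miRNAs the number lower ran from 56 to 86 in these settings and the number higher was 179 at the 75th percentile. Among 5 miRNAs known to target ErbB receptors, miR-331 was higher (1.83 ± 0.45, adjusted p = 0.000346) and miR-205 lower, and miR-125b (-1.22 ± 0.47) was lower but lost its call without MMTV-H2N replicate 2 or 5 or normal replicate 5 (adjusted p = 0.05 to 0.0989). Of 6 p53-induced miRNAs 2 were higher, both at or below 3 times the floor on all normal arrays and above it in 1 tumor, and 1 was lower, miR-34a (-1.63 ± 0.45, adjusted p = 0.0012). The number higher in this list ran from 0 for unscaled arrays to 3 with scaling to the 75th percentile, while 1 was lower in each setting. Among 12 members of the clusters expressed in embryonic stem cells 7 were higher and none lower, at low signal. The number higher ran from 3 for unscaled arrays less their floor, where 42 of all 334 miRNAs were higher, to 10 with scaling to the 75th percentile, where 179 were. Their summed level was 6.20 to 9.56 times the array median in MMTV-H2N tumors and 1.64 to 3.35 times in normal glands. Of 2 members above the floor in all 5 tumors, miR-294 had a fold of 2.81 ± 0.46 and miR-302 of 2.75 ± 0.46.

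The study named 11 miRNAs for MMTV-Her2/neu tumors and 19 for normal gland, and since it chose them on these samples their direction is no independent evidence. Of the 11, 10 were higher than in normal gland and none was lower (median 2.04). The exception was miR-193, with 42.1, 54.5, 105, 119 and 30.1 times the array median in MMTV-H2N tumors, against 87.2, 48.4, 38.4, 18.7 and 17.3 times in normal glands (0.81 ± 0.46, adjusted p = 0.122). It was higher without normal replicate 1 (1.14, adjusted p = 0.0321) or MMTV-H2N replicate 5 (1.06, adjusted p = 0.0457) and in 4 of the other 6 settings. Of the 19, 17 were lower and none higher (median -2.37). The 2 not called were miR-486 (-0.97) and miR-193, which stands in both of the study's lists and had a positive fold here.

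To see which of these differences also set MMTV-H2N tumors apart from tumors of the same promoter and strain, they were compared with 19 tumors of 4 other MMTV models (5 MMTV-Hras, 6 MMTV-PymT, 4 MMTV-C-Myc and 4 MMTV-Wnt), without the normal arrays. Each fold was that of MMTV-H2N tumors over the unweighted mean of the 4 model means. A call therefore need not hold against each single model. In this fit 94 miRNAs were higher (28.1%) and 55 lower (16.5%) in MMTV-H2N tumors. All 5 MMTV-H2N tumors lay above all 19 others for 5 miRNAs (1.5%), miR-193, miR-684, miR-469, miR-471 and miR-302d, and below them for 5 (1.5%), miR-21, miR-301, miR-714, miR-223 and miR-370. Of these, miR-302d was dim, at 0.427 to 1.66 times the array median in MMTV-H2N tumors and at most 0.346 times in the others. miR-471 was above the floor in none of the 19 others. The floor, as a multiple of the array median, differed between arrays, and its part in these separations was not tested. The MMTV-H2N tumors enter both fits, so the calls are given side by side only. Of the 102 miRNAs higher than in normal gland, 53 were also higher than the mean of the other MMTV models and 0 lower. Of the 84 lower than in normal gland, 38 were also lower than the mean of the other models and 3 higher. Single models matched MMTV-H2N tumors for some miRNAs far above normal gland. miR-691 spanned 2.84 to 6.14 times the array median in MMTV-H2N and 1.95 to 5.25 times in MMTV-C-Myc tumors. Geometric means exceeded those of MMTV-H2N for miR-702 in MMTV-C-Myc (2.89 against 2.22) and miR-211 in MMTV-Hras tumors (3.28 against 3.10). By contrast miR-684 and miR-469 were above every other tumor, as given above.

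miR-21 was again furthest below, at -7.78 ± 0.67 (adjusted p = 1.5e-09). It spanned 0.159 to 0.938 times the array median in MMTV-H2N tumors, 55.1 to 164 times in MMTV-Hras, 72.4 to 224 times in MMTV-PymT, 2.62 to 537 times in MMTV-C-Myc and 77.4 to 195 times in MMTV-Wnt tumors. All 19 other tumors were above every MMTV-H2N tumor, and the low end of MMTV-C-Myc tumors came closest. miR-301 (-3.37 ± 0.34, adjusted p = 2.4e-08) showed the same separation, with 0.121 to 0.374 times the array median in MMTV-H2N tumors and at least 0.707 times in each of the others. As given above, the array level of miR-301 was weakly or not associated with PCR in the study. miR-714 (-3.53 ± 0.44), miR-18 (-3.06 ± 0.41), miR-335 (-2.65 ± 0.47) and miR-712 (-2.62 ± 0.50) had the next lowest folds, and miR-712 was not called against normal gland (-0.70 ± 0.46, adjusted p = 0.175).

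On the higher side miR-684 led, at 4.31 ± 0.44 (adjusted p = 2.4e-08), with 1.02 to 7.03 times the array median in MMTV-H2N tumors and at most 0.533 times in the others, of which 5 of 19 were above the floor. miR-98 was higher as well (2.72 ± 0.37, adjusted p = 2.55e-06), with 105 to 334 times in MMTV-H2N tumors, 21.9 to 58.5 times in MMTV-Hras, 22.9 to 88.2 times in MMTV-PymT, 46.8 to 171 times in MMTV-C-Myc and 4.05 to 13.7 times in MMTV-Wnt tumors. Of these models only MMTV-C-Myc overlapped with MMTV-H2N. miR-193 had 30.1 to 119 times the array median in MMTV-H2N tumors and at most 24.8 times in the other models (2.81 ± 0.45, adjusted p = 2.75e-05). The red cell miRNA miR-451 was higher than the mean of the other models (2.28 ± 0.56, adjusted p = 0.00217) and not called against normal gland (-0.16 ± 0.45). Its range in MMTV-C-Myc tumors (91.5 to 1142 times the array median) overlapped that in MMTV-H2N tumors (178 to 695 times). Several miRNAs that distinguished MMTV-H2N tumors from normal gland did not pass the test here, among them miR-141 (1.26 ± 0.82, adjusted p = 0.23), miR-10b (0.02 ± 0.42), miR-103 (-0.23 ± 0.33) and miR-150 (0.82 ± 0.57).

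**Figure D5:**
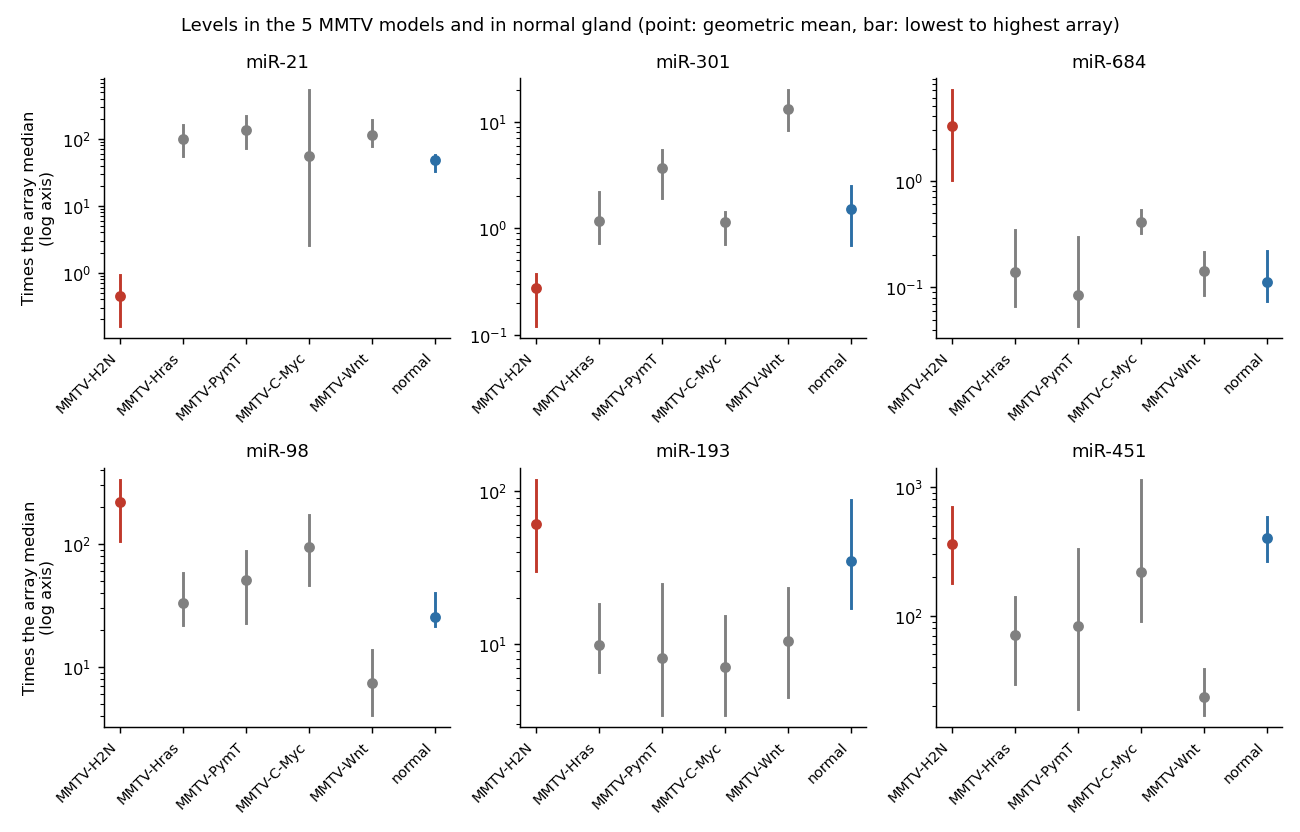
Level of 6 miRNAs, as a multiple of the array median on a log axis, in MMTV-H2N tumors (red), 4 other MMTV models (grey) and normal gland (blue). Points are geometric means and bars run from the lowest to the highest array. miR-21 and miR-301 are lowest in MMTV-H2N tumors, miR-684 and miR-98 have their highest means there, and the ranges of miR-193 and miR-451 in MMTV-H2N tumors overlap those of normal gland.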

How the data were processed

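RNA of each sample was hybridised to an Agilent array of custom design after Hy3 labelling, with probes from a Sanger miRBase release. Per the labels and the study's methods, the authors read signals with Agilent Feature Extraction, dropped control, non-mouse and minus-strand probes, and deposited the processed signal intensity of each spot. They also deposited a log2 table of the same arrays, scaled to one median, which differed from log2 of the signals only by a constant per array. Here log2 signals were centred on the array median over all 1336 spots and the 4 spots of a miRNA averaged. All 334 miRNAs were fitted with limma 3.58.1 (R 4.3.3) in MMTV-H2N and normal arrays, and in a second fit in the 5 MMTV models, with Benjamini-Hochberg adjustment and a threshold of 0.05. Signals at or below 3 times the 5th percentile of an array count as not well above background. Where all arrays of a group are there, folds are bounds ("at least"), with each such array raised to that level. The array number limits precision. Scripts were tested on simulated data. The members and lists were chosen with earlier results of these data known. The text names the 10 called miRNAs with the largest fold each way that were above the floor on all arrays of the higher group, up to 4 members of each list, miRNAs the study names, the 5 with the largest fold each way against other MMTV models, and others named after their values were seen. Alternatives covered scaling, background, filters, spot summary, array weights, the methods' t-test and each array left out. Of 54 array names looked up, 51 matched RefSeq, and overlapping genes are given by span, without exon or intron. 1 column of spot values matched no sample and was not used. Slide and scan batches are not given in the sources used here.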

Additional observations from a re-analysis of the deposited data

Results flagged for a closer look

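Single arrays stood far from the rest of their group for 21 of 274 groups of 5 examined, where chance alone gives about 1 group in 20. In each case the gap from the highest or lowest array to its nearest neighbour took up more than 0.71 of the whole range on the log2 scale. That share is given for each miRNA after the level of the array and the range of the rest, both as multiples of the array median.

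MMTV-H2N replicate 5 was the lowest tumor for 7 miRNAs, miR-128a (0.131 against 0.577 to 0.959 in the rest, share 0.745), miR-27b (15.3 against 67.2 to 75.2 in the rest, share 0.93), miR-301 (0.121 against 0.305 to 0.374 in the rest, share 0.818), miR-32 (0.245 against 0.774 to 1.13 in the rest, share 0.752), miR-331 (1.89 against 5.82 to 8.53 in the rest, share 0.746), miR-690 (422 against 1234 to 1703 in the rest, share 0.769) and miR-92 (0.851 against 2.55 to 3.35 in the rest, share 0.801). It was also the tumor whose profile correlated least with the others of its group (mean r 0.910). miR-27b, of the miR-23, miR-24 and miR-27 clusters, had the widest gap, and miR-690 was the brightest miRNA of the tumors.

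MMTV-H2N replicate 1 was the highest tumor for 4 miRNAs, miR-10b (10.3 against 1.74 to 2.38 in the rest, share 0.823), miR-204 (18.7 against 0.891 to 2.02 in the rest, share 0.731), miR-34c (6.75 against 0.586 to 0.998 in the rest, share 0.782) and miR-96 (4.83 against 1.43 to 1.998 in the rest, share 0.723). It was the lowest for miR-302 (0.612 against 2.13 to 3.32 in the rest, share 0.738) and miR-378 (0.594 against 0.928 to 1.11 in the rest, share 0.714). MMTV-H2N replicate 4 was the highest for miR-133b (8.97 against 2.13 to 2.85 in the rest, share 0.797). The 4 spots of a miRNA also spread most widely on the array of replicate 1, and the part of that spread in these values was not tested.

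Normal replicate 1 was the highest normal gland for 7 miRNAs, let-7a (307 against 224 to 242 in the rest, share 0.753), let-7f (138 against 99.2 to 108 in the rest, share 0.756), let-7g (152 against 91.7 to 104 in the rest, share 0.746), miR-185 (9.38 against 3.996 to 4.97 in the rest, share 0.744), miR-19b (19.8 against 7.85 to 9.05 in the rest, share 0.847), miR-26a (100.04 against 67.8 to 73.04 in the rest, share 0.808) and miR-98 (40.1 against 21.7 to 24.02 in the rest, share 0.837). Of these, 4 belong to the let-7 family. For let-7f and miR-98, which were higher in MMTV-H2N tumors, this gland was the normal sample nearest to the tumors.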

How the results depend on the processing

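Against normal gland, 186 miRNAs were called (102 higher and 84 lower). The total was 121 with the floor subtracted and no scaling, 97 among miRNAs at or above the median signal and 70 by the methods' t-test at an unadjusted p under 0.001. The number higher was 179 with scaling to the 75th percentile, 171 with the brightest miRNAs as reference, 160 with array weights, 60 without scaling, 42 with the floor subtracted and no scaling, 48 with only miRNAs above the floor on all arrays of a group, 32 at or above the median signal and 34 by that t-test, which called 36 lower. Both signal filters leave fewer miRNAs to call, and otherwise the cause was not tested. Against the other MMTV models (149, with 94 higher and 55 lower), the total was 99 with the floor filter and 71 at or above the median signal. There the number higher was 60 with quantile normalization, 18 without scaling, 19 with the floor subtracted, 47 and 29 with the filters, and the number lower was 32 with scaling to the 75th percentile, 96 without scaling and 98 with the floor subtracted. With 1 array left out, the calls against normal gland ran from 166 to 221 (85 to 139 higher and 80 to 86 lower), and those against other models from 116 to 154 (68 to 98 higher and 44 to 60 lower). The log2 floor difference ran from 0.34 to 0.72, that of the 90th percentile from -0.68 to -0.40, that of the median from -0.46 to 0.10 and that of the number above the floor from -5.85 to 10.4. The floor differed without MMTV-H2N replicate 1 (exact permutation p = 0.0238) and the 90th percentile without replicate 2 (exact permutation p = 0.0159). Without MMTV-H2N replicates 1 and 2, left out after the data were seen, 158 were called (76 higher and 82 lower). The methods' t-test with Benjamini-Hochberg adjustment called 158 (85 higher and 73 lower). miR-194, near 0 with median scaling, turned positive with scaling to the 75th percentile (0.67). Same-numbered samples share only a number (the 5 correlations of their deviations ran from -0.172 to 0.276, and 3 of 10 arrays correlated best with their own number), and a fit with the replicate number as a block called 210 (121 higher and 89 lower). Low signal limits most higher calls, since 53 of 102 were at or below 3 times the floor on all normal arrays.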

Other observations

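Other families gave further values. miR-99a (-2.71) was lower in the tumors, while miR-99b (0.24) and miR-100 (-0.68) were not called. In the miR-15 and miR-16 family, known to restrain the cell cycle, miR-15a was lower (-1.70) and the other 4 members were not called. miR-138 (-2.66), known from neurons, fell together with miR-128a (-1.76) and miR-128b (-1.38), and of 9 neural miRNAs 4 were lower and 1 higher, beside 25.1% lower and 30.5% higher over all miRNAs. miR-182 (-1.43), of the sensory miR-183 cluster, was lower and miR-96 (-0.09) was not called.

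The mouse X-linked cluster known from testis had 3 of 6 members higher in MMTV-H2N tumors, beside 30.5% of all miRNAs, and each of the 3 was at or below 3 times the floor on every normal array. The number followed that of all 334 miRNAs across settings, with 1 of 6 after quantile normalization, where 83 of all were higher, and 5 of 6 with scaling to the 75th percentile, where 179 were. miR-471 was above the floor in 4 of 5 tumors and at least 2.46-fold higher than in normal gland (adjusted p = 2.19e-06). It was above the floor in none of the 19 tumors of the other MMTV models, so no fold against them is given.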
